A study of Mus musculus with 65 samples.

Results

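The subunits of the mitochondrial respiratory chain and of ATP synthase that the nucleus encodes were followed through single cells of the developing mouse neocortex. Members were all genes whose symbol begins with Nduf and one of the letters a, b, c, s or v with a number (complex I), is Sdha, Sdhb, Sdhc or Sdhd (complex II), or begins with Uqcr (complex III), with Cox and a number of 4 to 8 (complex IV) or with Atp5 (ATP synthase, called complex V). This gave 76 members among the 10407 genes in the tables, with 36 in complex I, 4 in complex II, 8 in complex III, 12 in complex IV and 16 in complex V. A further 9 annotated coding genes of the same naming pattern, among them Atp5g2, Cox4i2 and Ndufa4l2, were not analysed here. Cox5a, the marker given for the module, was read in 57 of the 65 cells.

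Patch-seq, in which a cell is aspirated through a pipette, gave 65 libraries of CD1 mouse embryos, 1 for each cell, with priming at the 3′ end of transcripts. Transplanted cells (19) were progenitors of embryonic day 15 (E15) placed in an embryonic day 12 (E12) host brain, E15 cells (26) and E12 cells (20) were FlashTag-labelled and stayed in their own embryo. FlashTag is a fluorescent dye that marks progenitors dividing at the ventricular surface, and the labels call the unmoved cells wild type. The study asked whether older apical progenitors behave like younger ones in a younger host. Neither animals nor litters nor hosts are named in the labels. Each group was therefore treated as 1 sample, without a test between groups, and all differences are descriptions of these libraries. Levels are CPM, the reads of a gene over all reads of the genes in the tables, times 1000000, with the reads of a group added up first. Limits in brackets are exact 95% limits. They reflect counting error of the added-up reads alone and leave out the spread between cells. The kit has no molecular identifiers, and PCR copies of a molecule count as separate reads. The limits are therefore too narrow even for the counting of molecules.

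Complexes I to IV pass electrons from NADH and succinate to oxygen in the inner mitochondrial membrane, and complexes I, III and IV pump protons as they do so. ATP synthase lets the protons back and makes ATP. A few core subunits are encoded in mitochondrial DNA, and all other subunits are nuclear genes whose products are imported. Neural progenitors are known for a strong use of glycolysis, and neurons for a reliance on oxidative phosphorylation.

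Depth differed between the groups, with 22358 to 3622411 reads per transplanted cell (median 166134), 11449 to 4560871 per E15 cell (median 998630) and 10928 to 1635767 per E12 cell (median 148824). Transplanted replicate 15 gave 28.5% of its group's reads and E12 replicate 5 gave 33.1%, so that summed levels lean on these cells. Above 8000 detected genes lay 5 transplanted libraries, 11 E15 libraries and 0 E12 libraries, called many-gene libraries here. Without them, transplanted replicate 19 gave 2584656 of the 4639870 transplanted reads left, so that summed transplanted levels then lean on this cell. Markers of apical progenitors, 20 of 20 in the tables, summed to 8202 CPM in transplanted, 8021 CPM in E15 and 10090 CPM in E12 cells. Without the many-gene libraries they summed to 16397, 21770 and 10090 CPM, so that the order of the E15 and E12 sums turned. Most of these markers stayed lower in E15 cells. Their median log2 ratio of E15 over E12 was -1.23 with 15 of 20 lower, and -0.59 with 12 lower without those libraries. Markers of neurons (19 of 20 in the tables) summed to 5769 CPM in transplanted, 6051 CPM in E15 and 1458 CPM in E12 cells, and without those libraries to 3277, 3804 and 1458 CPM. Ventral interneuron markers (12 of 13) summed to 2209 CPM in transplanted, 2876 CPM in E15 and 330 CPM in E12 cells, and to 1734, 615 and 330 CPM without those libraries. For E15 over E12 their median log2 ratio was 2.97, with 12 of 12 at least 2-fold higher, and 0.59 without those libraries. Microglia and macrophage markers (16 of 16) stood at 1267, 4501 and 123 CPM in the same order, and at 2062, 1494 and 123 CPM without those libraries. Red blood cell markers (5 of 9) stood at 15773, 2636 and 2958 CPM, and at 43047, 6283 and 2958 CPM without those libraries. Transplanted replicate 19, with 2584656 reads, had 64865 CPM of them, the highest of its group. Their per-cell medians were 4698 CPM in transplanted, 116 CPM in E15 and 2946 CPM in E12 cells. The part of these lists in the results below was not tested.

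The sequences upstream of the members were searched for motifs of factors known at respiratory genes. RefSeq promoter windows (GRCm38.p6, 250 bases before to 50 after each start) were found for 62 members by symbol. The NRF1 motif (GCGCA, any base, then GCGC), bound by a factor known for its targets among respiratory genes, was matched on either strand in 25.8% of these members and in 5.19% of the 27025 genes with a window. The ETS motif CCGGAAG, which GABPA (NRF2) binds, was likewise matched in 25.8% of members and in 9.93% of all genes. The YY1 motif AAGATGGC was matched in 14.5% of members and 3.19% of all genes, whereas GGGCGG, the core of the SP1 motif, was matched in 38.7% of members and 38.2% of all genes. TATAAA was matched in 8.06% of members and 15.7% of all genes. Member windows held a median of 57.3% G and C, and all windows 52.7%. A match is a stretch of letters and not evidence of binding.

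The 150 bases before the RefSeq start are shown for 1 or 2 members of each complex, chosen to include Ndufv3 and Cox5a, on which the results turn, and members with matches. They lie at chr17:31519965-31520114 for Ndufv3, chr17:56717612-56717761 for Ndufa11, chr9:50603850-50603999 for Sdhd, chr4:116075071-116075220 for Uqcrh, chr9:57521082-57521231 for Cox5a, chr5:115348959-115349108 for Cox6a1 and chr2:174464102-174464251 for Atp5e. Ndufv3, Ndufa11 and Cox5a are on the plus strand and the others on the minus strand. Each is printed 5′ to 3′ on the gene's own strand, and capitals mark matches to the NRF1, ETS or YY1 motif. Matches of 2 motifs could overlap in the search, and none do in these stretches.
Ndufv3: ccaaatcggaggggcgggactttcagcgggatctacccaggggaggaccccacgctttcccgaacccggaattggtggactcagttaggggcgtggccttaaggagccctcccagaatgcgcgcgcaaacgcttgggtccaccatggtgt
Ndufa11: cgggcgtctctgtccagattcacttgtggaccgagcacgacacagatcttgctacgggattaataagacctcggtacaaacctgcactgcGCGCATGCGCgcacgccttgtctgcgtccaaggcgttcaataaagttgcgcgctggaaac
Sdhd: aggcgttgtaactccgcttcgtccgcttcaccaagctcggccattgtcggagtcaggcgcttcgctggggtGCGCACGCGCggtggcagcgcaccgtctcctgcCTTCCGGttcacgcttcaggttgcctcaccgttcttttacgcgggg
Uqcrh: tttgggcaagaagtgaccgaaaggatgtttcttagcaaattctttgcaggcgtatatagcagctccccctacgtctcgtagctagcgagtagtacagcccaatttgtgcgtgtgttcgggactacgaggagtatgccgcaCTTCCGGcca
Cox5a: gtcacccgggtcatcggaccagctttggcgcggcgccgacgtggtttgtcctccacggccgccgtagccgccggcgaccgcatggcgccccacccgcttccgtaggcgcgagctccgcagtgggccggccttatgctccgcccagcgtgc
Cox6a1: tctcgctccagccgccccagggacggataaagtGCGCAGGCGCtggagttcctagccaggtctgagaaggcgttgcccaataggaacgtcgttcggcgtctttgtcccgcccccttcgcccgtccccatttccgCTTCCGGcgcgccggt
Atp5e: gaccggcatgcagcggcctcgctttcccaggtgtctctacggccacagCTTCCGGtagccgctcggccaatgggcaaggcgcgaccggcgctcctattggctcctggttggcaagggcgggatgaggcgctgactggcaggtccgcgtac
Sdhd, an anchor of complex II, and Cox6a1, a subunit of complex IV, held a match to NRF1 and one to ETS. Ndufa11 held a match to NRF1, and Uqcrh and Atp5e held one to ETS. Ndufv3 and Cox5a held no match to these 3 motifs in the stretch shown. The 16 members with an NRF1 match and the 46 without one had median log2 ratios of 0.20 and 0.24 for E15 over E12 and of 0.54 and 0.35 for transplanted over E12. For the ETS motif, also with 16 and 46 members, these were 0.24 and 0.20, and 0.52 and 0.33. For the YY1 motif, with 9 members with a match and 53 without, they were 0.07 and 0.22, and 0.32 and 0.47.

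Most members were read in most cells. On average a cell had a read of 90.7% of members in transplanted, 93.8% in E15 and 84.9% in E12 cells. Of all genes, these shares were 51.7%, 65.4% and 37.2%. Of the 76, 18 had a read in every cell, 55 in at least 60 cells and 4 in under 30 cells. In a cell, 51 to 76 members were read in transplanted cells (median 72), 55 to 76 in E15 cells (median 73.5) and 46 to 74 in E12 cells (median 65.5). Thinned to 28614 reads per cell, which leaves out 2 transplanted, 2 E15 and 3 E12 cells, the medians were 68, 70 and 60 members. The number of members read per cell followed depth, with a Spearman correlation with the log of total reads of 0.80 over 19 transplanted, 0.88 over 26 E15 and 0.64 over 20 E12 cells. These points share a library each, and both measures come from the same reads.

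The order of the members was much alike in the 3 groups. Spearman correlations of CPM over the 76 members were 0.99 between transplanted and E15, 0.94 between E15 and E12 and 0.94 between transplanted and E12 cells, as a description over genes that share libraries. Cox6a1 and Cox6b1, small nuclear subunits of complex IV, were among the members of highest level, at 2103 and 2156 CPM in transplanted, 2255 and 1885 CPM in E15 and 1685 and 1345 CPM in E12 cells. Cox4i1, which joins the mitochondrially encoded core of complex IV, had 1681, 1620 and 1449 CPM in the same order of groups. Libraries were primed at the 3′ end, so these levels are not divided by transcript length. In all, 10 members reached 1000 CPM in every group and 66 reached 100 CPM.

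A few members were low in every group, and 6 stayed under 50 CPM. Atp5g1, one of the genes for the c ring of ATP synthase, had 3.85 CPM in transplanted, 4.30 CPM in E15 and 6.07 CPM in E12 cells, while Atp5g3, which codes for the same mature protein, had 1632, 1535 and 1570 CPM. Atp5l, subunit g of ATP synthase, had 8.26, 10.8 and 4.45 CPM, and Cox7c, a small subunit of complex IV, had 22.8, 19.6 and 28.1 CPM. Part of their transcripts' 3′ ends is also present in other genes. In GENCODE vM21, 83.4% of the 50-base stretches in the last 500 bases of Atp5l occur in transcripts of 14 other genes, 12 of them pseudogenes. The share was 45.9% for Atp5g1 and 28.4% for Cox7c. Whether reads that fit several genes were dropped is not given in the sources used here, so the level of such members is uncertain. Of the 75 members with a coding transcript there, 36 shared no such stretch, 35 shared up to 50% and 4 shared more (Atp5l, Ndufs3, Atp5h and Uqcrc2).

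**Figure D1:**
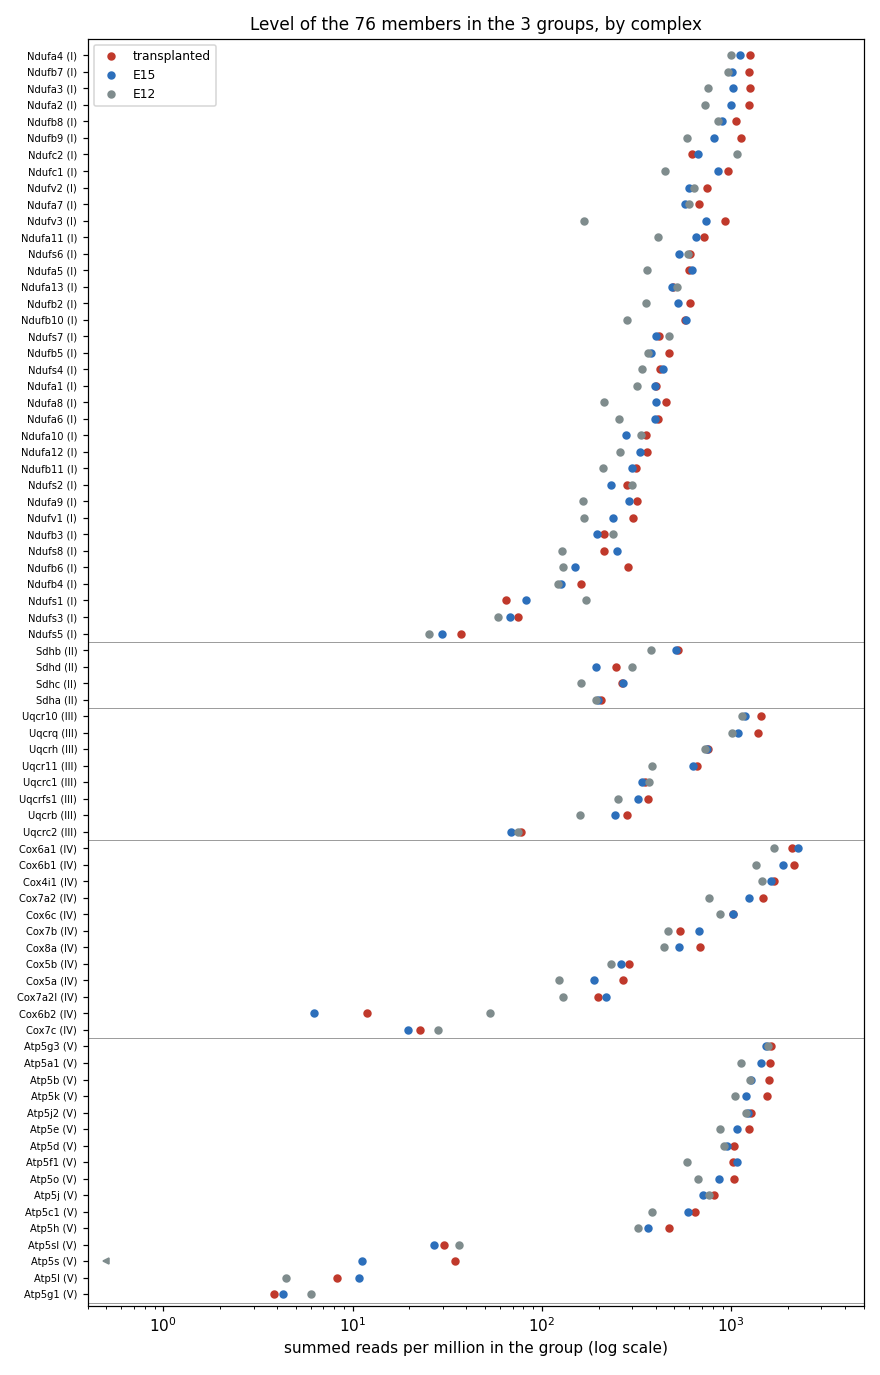
Summed CPM (log axis) of each of the 76 members in transplanted (red), E15 (blue) and E12 cells (grey), sorted by level within complexes I to V. Most members lie above 100 CPM with the groups close together, Ndufv3 has its E12 point far to the left, and the grey arrow marks Atp5s, listed at 0 in E12 cells.

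Symbols in the naming pattern that are no plain subunit, or code for a tissue isoform, differed in level. Ndufa4, named for complex I and known as a subunit of complex IV, had 1253 CPM in transplanted, 1111 CPM in E15 and 998 CPM in E12 cells. Cox7a2l, a factor of supercomplex assembly, had 199, 218 and 129 CPM. Cox6b2, known as the testis isoform of subunit VIb, had 11.95 CPM in transplanted, 6.27 CPM in E15 and 53.0 CPM in E12 cells. It was read in 5, 11 and 2 cells, and E12 replicate 5 held 99.6% of its E12 reads. Without that cell the log2 ratio of E15 over E12 was 2.48 in place of -2.89. Atp5s, a coupling factor and no subunit, had 34.7 CPM in transplanted and 11.3 CPM in E15 cells and was at 0 reads in E12 cells. With E12 cells set to 3 counts in all, the limit a count of 0 allows, this is at least 57.1-fold higher in transplanted and at least 18.6-fold higher in E15 cells. Transplanted replicate 19 held 71.2% of its transplanted reads. Atp5sl had 30.3, 27.1 and 36.4 CPM in transplanted, E15 and E12 cells.

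Taken over all members, the module held 5.13% of reads in transplanted cells, 4.57% in E15 cells and 3.81% in E12 cells. Per cell it had 21504, 44243 and 93127 CPM in transplanted cells as lowest, median and highest, 19693, 44318 and 72225 CPM in E15 cells, and 24870, 39369 and 74221 CPM in E12 cells. The groups overlapped over most of their range, and the medians of transplanted and E15 cells were nearly equal. The 3 highest transplanted cells, replicates 5, 9 and 14, lay at 84266 to 93127 CPM, above every E15 and E12 cell. Replicates 5 and 9 were shallow, with 52192 and 68451 reads and 2331 and 2483 detected genes. They held 14198 and 22673 CPM of red blood cell markers. Transplanted replicates 8, 12, 18 and 19 held more of these markers, at 39223, 26661, 24584 and 64865 CPM. Their module levels were 21504, 32172, 50188 and 40487 CPM. Replicate 14 had 1571996 reads, 8193 genes and 147 CPM of these markers. The mean of cells was 49202 ± 19873 CPM in transplanted (SD, n = 19), 45905 ± 10544 CPM in E15 (SD, n = 26) and 40249 ± 10877 CPM in E12 cells (SD, n = 20), so that the means differed by less than 1 SD between cells. The level of the added-up reads was 51270 (51146 to 51395) CPM in transplanted, 45689 (45621 to 45758) CPM in E15 and 38081 (37909 to 38253) CPM in E12 cells.

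The deposited values are log10 residuals from which depth-related directions had been removed. The median of the 76 deposited values of a cell ranged from -0.28 to 0.49 (median -0.0006) in transplanted cells, from -0.19 to 0.30 (median -0.01) in E15 cells and from -0.30 to 0.27 (median 0.003) in E12 cells. The groups overlapped almost completely on this scale. Taken member by member, the difference of group means of deposited values had a median, in log2 units, of 0.20 for E15 over E12 and 0.17 for transplanted over E12, and of 0.03 for transplanted cells over E15 cells. The same medians over all genes were 0.09, -0.06 and -0.16. Of the variance of being an E12 cell or not, 24.2% lay in the removed directions, so that part of any difference from E12 is not in the deposited values.

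**Figure D2:**
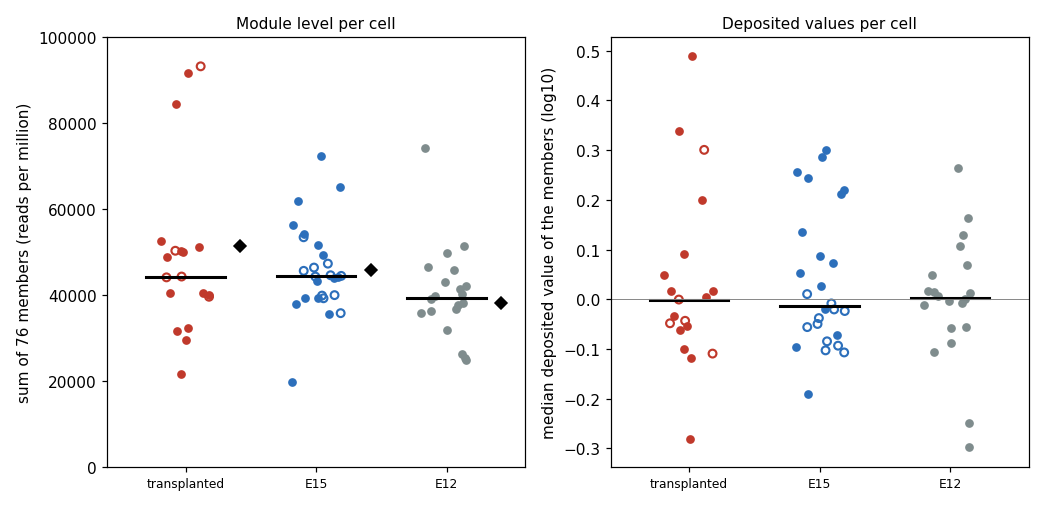
Left, the summed level of the 76 members in each cell in CPM, with 1 point per cell, open circles for libraries above 8000 genes, a bar at the median of cells and a diamond at the level of the added-up reads. Right, the median deposited log10 value of the members in each cell. The bars of transplanted and E15 cells are level at 44243 and 44318 CPM, that of E12 cells lies at 39369, and 3 transplanted cells stand at 84266 and above.

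In E15 over E12 cells, most members were somewhat higher in E15 cells. The median log2 ratio was 0.23 over 76 members, with 57 higher and 19 lower in E15 cells, while all 10193 genes tested had a median of -0.03 with 49.03% higher. On mean CPM per cell 49 members were higher and 27 lower. Only 38 of the 76 kept 1 direction on sums, on mean CPM, without the many-gene libraries and on leaving out any 1 cell. Genes of at least 100 CPM had a median of -0.24. Only a few members passed a 2-fold difference, with 4 at least 2-fold higher and 2 at least 2-fold lower, against 25.3% and 20.3% of all genes. Among genes of at least 100 CPM, a level most members reached, these shares were 11.3% and 22.5%. The direction was shared by the complexes, with medians of 0.27 in complex I, 0.24 in II, 0.08 in III, 0.34 in IV and 0.18 in V. The values of complexes II and III turned with equal weight per cell, to -0.30 and -0.22 on mean CPM per cell. The summed module was higher in E15 cells in each of the 8 library pools named in the labels, by a mean log2 ratio of 0.22 with a range of 0.07 to 0.55. A pool held only 2 to 5 E15, 1 to 4 E12 and 0 to 4 transplanted cells. Pool H had 1 E12 cell, of 10928 reads, and pool E had 1 transplanted cell. Counts of pools here are therefore descriptions of few cells each. Without the many-gene libraries the median over members was 0.39. With cells thinned to equal depth it was 0.14. All genes stood above the members on 2 other measures, the group medians of cells (0.41 for members, 1.92 for all genes) and the mean of ratios within pools (0.53 and 1.33).

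Ndufv3, an accessory subunit of the NADH-oxidising arm of complex I, differed most among the well-read members. Per cell it had 0, 779 and 2085 CPM in transplanted cells as lowest, median and highest, 7.92, 725 and 1747 CPM in E15 cells, and 0, 136 and 1318 CPM in E12 cells. Transplanted and E15 cells had similar medians, with a few cells far below the rest, while E12 cells were spread from 0 up to the level of the other groups. The summed level was 925 (908 to 942) CPM in transplanted, 739 (730 to 747) CPM in E15 and 168 (156 to 179) CPM in E12 cells. E15 over E12 this is 4.41-fold (4.11 to 4.73), a log2 ratio of 2.13, and transplanted over E12 it is 5.52-fold (5.15 to 5.93), a log2 ratio of 2.46. It was higher in E15 than in E12 cells in 7 of 8 pools, the exception being pool B with 740 CPM in E15 and 1052 CPM in E12 cells. Leaving out any 1 cell gave log2 ratios of 1.74 to 2.38 for E15 over E12, the lowest without E12 replicate 5. With equal weight per cell the ratio was smaller, at 1.23 on mean CPM and 0.86 on thinned reads. For transplanted over E12 it was 1.43 on mean CPM, 1.10 on thinned reads and 0.84 as the mean of ratios within pools. Ndufv3 lies on chromosome 17 at 31520115 to 31531331 (GRCm38, GENCODE vM21), plus strand, and it was read in 62 of 65 cells.

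**Figure D3:**
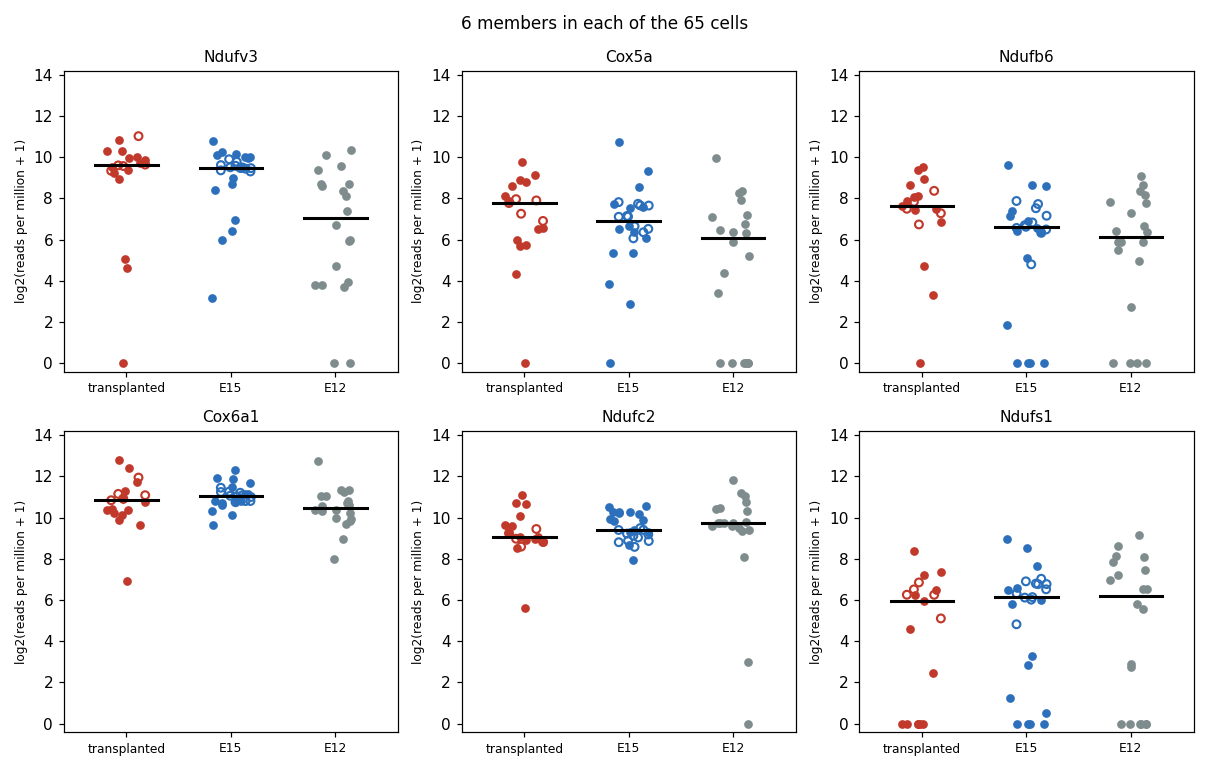
Log2 of CPM plus 1 for 6 members in each of the 65 cells, with a bar at the group median and open circles for libraries above 8000 genes. Ndufv3 has medians of 779 and 725 CPM in transplanted and E15 cells and 136 in E12 cells, Cox6a1 has no cell at 0, and Ndufs1, Ndufb6 and Cox5a are at 0 in part of the cells of each group.

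Other complex I members also lay higher in E15 cells. Ndufb10, an accessory subunit of the membrane arm, had 4.36, 494 and 1526 CPM per E15 cell as lowest, median and highest and 0, 239 and 1588 CPM per E12 cell, with a log2 ratio of the sums of 1.05. The ranges overlapped fully, and the ratio was under 2-fold (0.89) without E12 replicate 5. Ndufc1, a small membrane-arm subunit, had medians of 753 CPM in E15 and 413 CPM in E12 cells (0.93). Ndufs8, which carries iron-sulphur clusters in the core, had medians of 225 CPM in E15 and 11.1 CPM in E12 cells. Its log2 ratio of 0.96 became 1.93 without E12 replicate 5, which held 66.1% of the E12 reads of the gene. Ndufa8, named after its values were seen, had 400 CPM in E15 and 212 CPM in E12 cells (0.91), and 1.92 on the log2 scale without E12 replicate 5. Atp5l, also named after its values were seen, passed 2-fold (1.12) at levels near 10 CPM.

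Some members went the other way. Ndufs1, the largest core subunit of complex I, had medians of 68.8 CPM in E15 and 73.0 CPM in E12 cells, with 4 of 26 E15 cells and 6 of 20 E12 cells at 0 reads. Its summed level of 82.8 CPM in E15 and 171 CPM in E12 cells gave a log2 ratio of -1.03, and E12 replicate 5 held 53.0% of its E12 reads. Without that cell the log2 ratio was -0.53, without the many-gene libraries it was -1.59, and the mean of ratios within pools was 0.28. Ndufc2, partner of Ndufc1 in the membrane arm, had 243, 670 and 1502 CPM per E15 cell as lowest, median and highest and 0, 858 and 3612 CPM per E12 cell. It was lower in E15 cells by the sums (log2 ratio -0.69, -0.81 to -0.56 on leaving out any 1 cell) and higher in E15 cells in 3 of 8 pools. Sdhd had a log2 ratio of -0.63 and Cox7c one of -0.50.

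Complex II, which holds the succinate dehydrogenase of the citric acid cycle, was small and mixed. The flavin-binding Sdha had 206 CPM in transplanted, 198 CPM in E15 and 194 CPM in E12 cells, nearly the same in all groups. The iron-sulphur subunit Sdhb had 522, 512 and 376 CPM. The anchor Sdhc had 266, 269 and 160 CPM, and the anchor Sdhd, which binds in the membrane beside Sdhc, had 246, 192 and 299 CPM. The anchors therefore differed in direction between E15 and E12 cells, at log2 ratios of 0.75 for Sdhc and -0.63 for Sdhd. Per cell Sdhd had medians of 200 CPM in E15 and 155 CPM in E12 cells, the reverse of the order of its sums.

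Transplanted cells were close to E15 cells, and the small difference of summed levels changed sign without the many-gene libraries. The median log2 ratio of transplanted over E15 was 0.17 over 75 members, with 63 higher and 12 lower in transplanted cells, against a median of -0.08 and 44.4% higher among 10163 genes. On mean CPM per cell 48 members were higher and 27 lower. Only 23 of the 75 kept 1 direction on sums, on mean CPM, without the many-gene libraries and on leaving out any 1 cell. Genes of at least 100 CPM, a level most members reached, were closer to the members, with a median of 0.05 and 55.9% higher. Of the members, 1 was at least 2-fold higher (Atp5s) and 0 at least 2-fold lower, where all genes had 4.71% and 11.8%. By complex the medians were 0.18 in I, 0.04 in II, 0.17 in III, 0.17 in IV and 0.16 in V. Without the many-gene libraries the median over members was -0.11, with 29 higher and 46 lower, and all genes had a median of -0.13. Genes of at least 100 CPM then had a median of 0.03. These summed values lean on transplanted replicate 19. Per-cell medians of the module stayed nearly equal without those libraries, at 44603 CPM in transplanted and 44148 CPM in E15 cells. With all cells they were 44243 and 44318 CPM, so that their order turned the other way from that of the sums. Leaving out any 1 cell left the median over members at 0.03 to 0.22. The log2 ratio of the summed module was 0.17 with all cells and -0.01 without transplanted replicate 14, which had 93127 CPM and 8193 detected genes. The module was higher in transplanted cells in 4 of 7 pools.

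After Atp5s (1.54), Ndufb6 of the membrane arm of complex I had the next log2 ratio of transplanted over E15 by size. It had 0, 201 and 746 CPM per transplanted cell as lowest, median and highest, 0, 96.6 and 786 CPM per E15 cell and 0, 70.5 and 549 CPM per E12 cell. The ranges overlapped, and 18 of 19 transplanted, 22 of 26 E15 and 16 of 20 E12 cells had a read. The log2 ratio of transplanted over E15 was 0.92 (0.77 to 1.09 on leaving out any 1 cell) and 1.14 without the many-gene libraries, and the gene was higher in transplanted cells in 7 of 7 pools. Of its 3′ end, 32.1% of 50-base stretches are shared with another gene. Ndufb9 had 1123 CPM in transplanted and 811 CPM in E15 cells (0.47). Cox7b, on the X chromosome, had 540 CPM in transplanted and 673 CPM in E15 cells (-0.32), and Ndufs8 had 213 and 251 CPM (-0.23).

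Cox5a, a nuclear subunit at the matrix side of complex IV and the gene that marks this module, had its summed levels in the same order as the summed module over all cells. Per cell it had 0, 219 and 859 CPM in transplanted cells as lowest, median and highest, 0, 119 and 1704 CPM in E15 cells, and 0, 67.8 and 1001 CPM in E12 cells. The ranges overlapped, with 18 of 19 transplanted, 25 of 26 E15 and 14 of 20 E12 cells having a read. The summed level was 269 (260 to 278) CPM in transplanted, 190 (185 to 194) CPM in E15 and 123 (114 to 133) CPM in E12 cells. The log2 ratio was 0.62 for E15 over E12 and 0.50 when transplanted cells were set against E15 cells. Set against E12 cells, transplanted cells had 1.12. E15 replicate 6 held 21.5% of its E15 reads, and without it transplanted over E15 was 0.76. Deposited values of Cox5a had medians of 0.12 in transplanted, -0.05 in E15 and 0.004 in E12 cells. Of its 3′ end, 42.4% of 50-base stretches are shared with 3 other genes, 2 of them pseudogenes. It lies on chromosome 9 at 57521274 to 57532426, plus strand.

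Transplanted cells stood above E12 cells at most members, and this comparison shares its cells with the other 2. The median log2 ratio was 0.43 over 76 members, with 64 higher and 12 lower, against -0.09 and 47.2% higher among 9931 genes. On mean CPM per cell 55 members were higher and 21 lower. Only 39 of the 76 kept 1 direction on sums, on mean CPM, without the many-gene libraries and on leaving out any 1 cell. Genes of at least 100 CPM had a median of -0.20 with 42.1% higher. At least 2-fold higher were 7 members (Ndufv3, Ndufb6, Ndufc1, Ndufa8, Ndufb10, Cox5a and Atp5s) and at least 2-fold lower were 2 (Ndufs1 and Cox6b2), against 22.9% and 24.7% of all genes. The medians by complex were 0.43 in I, 0.28 in II, 0.39 in III, 0.31 in IV and 0.51 in V. Without the many-gene libraries the median over members was 0.22, and without transplanted replicate 14 it was 0.25. The module was higher in transplanted cells in 5 of 7 pools. Summed levels were in the order transplanted over E15 over E12 for 47 of the 76 members (61.8%) and in the reverse order for 3 (3.95%), while 19.9% and 26.1% of 10315 genes had these orders. These counts use the sums of all cells. Without the many-gene libraries, 29 of 75 members were higher and 46 lower in transplanted than in E15 cells, so the order does not hold there for most members.

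**Figure D4:**
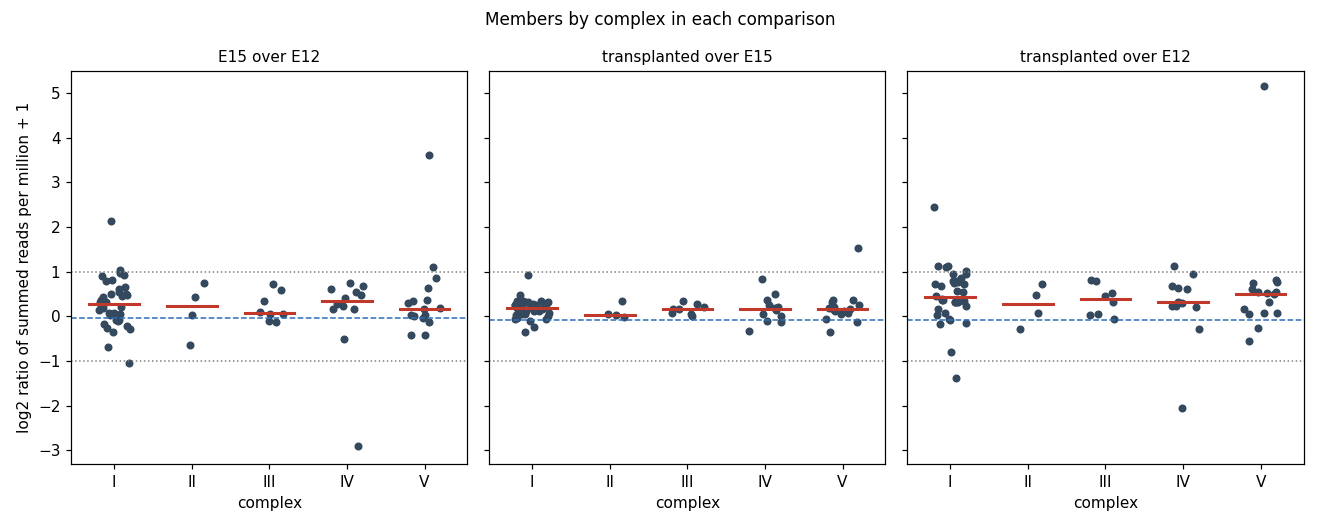
Log2 ratios of the summed CPM plus 1 of each member in the 3 comparisons, by complex, with a red bar at the median of the members of at least 5 CPM in either group. The dashed blue line is the median of all genes and the dotted lines mark 2-fold. Medians of all 5 complexes lie above the blue line in each panel (0.08 to 0.34, 0.04 to 0.18 and 0.28 to 0.51), and the point near 5 is Atp5s, whose ratio depends on the pseudocount of 1.

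**Figure D5:**
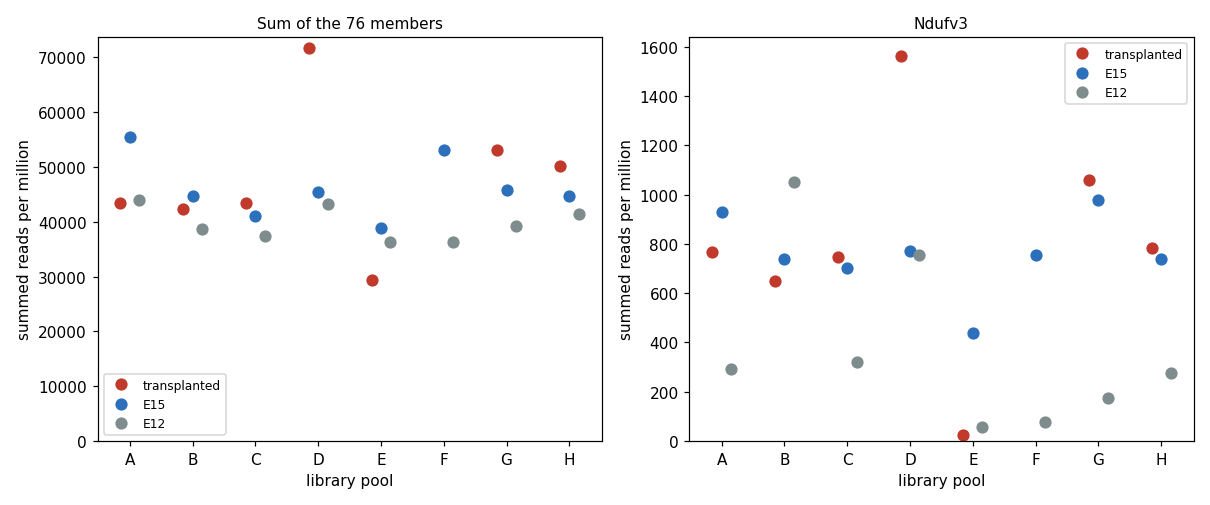
Summed CPM of the 76 members (left) and of Ndufv3 (right) by library pool in transplanted (red), E15 (blue) and E12 cells (grey). Pool F has no transplanted cell. The blue point lies above the grey one in 8 of 8 pools on the left and in 7 of 8 on the right, and red lies on both sides of blue.

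In the added-up reads of the groups, the complexes kept near-constant shares of the module. Single cells varied more. Complex III had 17254 of 74221 CPM of the module in E12 replicate 11 and 633 of 24870 CPM in E12 replicate 13. Complex I held 39.5% of member reads in transplanted, 38.6% in E15 and 38.3% in E12 cells, and complex V held 27.3%, 27.0% and 28.3%. Complex IV held 20.4%, 21.7% and 19.9%, complex III 10.4%, 10.1% and 10.8%, and complex II 2.42%, 2.56% and 2.70%. The Spearman correlation of complex I and complex IV levels was 0.94 over 19 transplanted, 0.70 over 26 E15 and 0.52 over 20 E12 cells, that of complexes I and V was 0.81, 0.80 and 0.33, and that of complexes IV and V was 0.72, 0.66 and 0.44. Over all 10 pairs of complexes the correlations ran from 0.093 to 0.94 in transplanted, from -0.19 to 0.80 in E15 and from -0.22 to 0.52 in E12 cells, and the lowest pair held complex II in each group. The levels share each cell's total. The module level had correlations of 0.05, -0.07 and -0.26 with total reads, 0.34, 0.22 and 0.14 with the neuron list and -0.20, -0.11 and 0.08 with the apical progenitor list, in transplanted, E15 and E12 cells.

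Partners of the module outside the naming pattern were set beside it. Of 13 mitochondrially encoded subunits 7 were in the tables, and 0 of them differed 2-fold in any comparison. They summed to 13159 CPM in transplanted, 13291 CPM in E15 and 11047 CPM in E12 cells, with per-cell medians of 10639, 11317 and 13142 CPM. Complex I and III genes led this list, with mt-Nd1 at 4455, 4158 and 3233 CPM and mt-Cytb at 3862, 4227 and 3647 CPM. Of 6 further subunits and partners, Atpif1, the inhibitor of ATP synthase running in reverse, had 2769 CPM in transplanted, 2574 CPM in E15 and 809 CPM in E12 cells. Its log2 ratio of E15 over E12 was 1.67, and 1.25 without the many-gene libraries. Cyc1, cytochrome c1 of complex III, had 679, 567 and 467 CPM.

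Among 45 assembly factors in the tables, the median log2 ratio of E15 over E12 was 0.26, with 11 (24.4%) at least 2-fold higher and 5 (11.1%) at least 2-fold lower. Among all genes these shares were 25.3% and 20.3%, which the counts of the lists below can be set against. For transplanted over E15 the median of assembly factors was -0.07, with 0 and 1 past 2-fold where all genes had 4.71% and 11.8%, and -0.49 without the many-gene libraries (15 higher, 30 lower). Uqcc2, an assembly factor of complex III, had 636 CPM in transplanted, 477 CPM in E15 and 307 CPM in E12 cells. The citric acid cycle had a median of 0.13 over 18 genes for E15 over E12 (6 at least 2-fold higher, 1 lower) and glycolysis one of -0.56 over 16 genes (2 higher, 4 lower). Without the many-gene libraries glycolysis stood at 0.07. Pkm, the last enzyme of glycolysis, had 1319, 1087 and 1737 CPM in transplanted, E15 and E12 cells, and Mdh2 of the citric acid cycle had 946, 988 and 741 CPM. Of mitochondrial biogenesis genes, 16 were tested with a median of -0.55 (2 higher, 4 lower), or -0.23 without the many-gene libraries. Tfam, which packs and transcribes mitochondrial DNA, had 52.0, 61.3 and 135 CPM. Of 22 carriers and dynamics genes the median was 0.14 (2 higher, 3 lower), with the ADP/ATP carrier Slc25a4 at 1116, 988 and 659 CPM and the fission factor Fis1 at 733, 706 and 292 CPM.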

How the data were processed

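The authors deposited log10 values per gene and cell. The values themselves show that each of the 10407 genes was centred over the 65 cells and that 2 further directions over cells were removed. STAR, HTSeq and mm10 are named in the submitters' processing notes. Versions are not given there. The design had assumed counts. Whole reads were recovered from the deposited log10 residuals, and all 356667 non-zero values fell within 0.01 of a whole number (55137570 reads in all). For 472 genes, 49 members among them, the reads came from a search that accepts only whole numbers. For these genes the closeness to whole numbers was therefore set in advance. On simulated data the recovery was checked before use.

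The members, the 14 lists, the naming rule and the limit of 8000 genes were chosen with earlier results of these data known. Named were Cox5a, all of complex II, the 3 members of highest CPM per complex and, per comparison and direction, the 4 with the largest ratio at 20 CPM and a read in 30% of cells of the higher group, with isoforms and no-subunits added. Log2 ratios took summed CPM plus 1, for genes of at least 5 CPM in either group. Sums are over 19 transplanted, 26 E15 and 20 E12 cells. Intervals were exact Poisson limits for levels and conditional binomial limits for ratios. Alternatives covered scaling, thinning, weighting, filters, pools and leaving out cells. Own code ran in Python 3.11.15 with NumPy 2.4.6 and SciPy 1.17.1.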

Additional observations from a re-analysis of the deposited data

How the results depend on the processing

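For E15 over E12 and transplanted over E12, the median log2 ratio over members and that of the summed module were above 0 under every alternative run, from 0.13 to 0.53 and 0.11 to 0.36 for E15 over E12 and from 0.17 to 0.59 for both in transplanted over E12. Leaving out any 1 cell gave medians of 0.17 to 0.29 and 0.25 to 0.50, and sums of 0.22 to 0.28 and 0.25 to 0.50. The members did not stand above all genes throughout: in E15 over E12 they had 0.41 by group medians of cells and 0.53 within pools, against 1.92 and 1.33 for all genes, and in transplanted over E12 0.38 within pools, against 0.80. The cause of the changes below was not tested. Transplanted over E15 changed sign: without libraries above 8000 genes the members stood at -0.11, the sum at -0.15 and complexes I, II, IV and V at -0.21, -0.11, -0.11 and -0.0435, with 3 members at least 2-fold higher and 3 lower. All genes stood at -0.13 there, at -0.49 by group medians and at -0.63 within pools. Group medians of per-cell values gave -0.050 over members, -0.0024 for the sum and -0.029, -0.13, -0.030 and -0.14 for the same complexes. Ratios within pools averaged -0.35 over members and -0.45, -0.20, -0.33 and -0.32 in complexes I to IV. Leaving out any 1 cell gave 0.03 to 0.22 over members, -0.010 to 0.24 for the sum, lowest without transplanted replicate 14, and -0.0445 to 0.11 in complex II.

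Complexes II and III in E15 over E12 were at -0.30 and -0.22 on mean CPM per cell and at -0.013 and -0.22 on reads thinned to equal depth, and complex V in transplanted over E15 was at -0.0023 and -0.0064. Differences of deposited values in log2 units gave -0.32 for complex III in E15 over E12, -0.15 for complex I in transplanted over E15 and -0.072 for complex III in transplanted over E12.

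Counts of 2-fold members were few and moved. In E15 over E12 the 4 higher were 7 with TMM, 8 without libraries above 8000 genes, 12 by group medians, 22 within pools and 2 at a minimum of 20 CPM, where 26.7%, 24.2%, 60.8%, 59.6% and 18.3% of all genes passed. The 2 lower were 1 on mean CPM, with median-of-ratios scaling, TMM, thinning or a pseudocount of 5 CPM, and 0 by group medians, deposited values or within pools, with 0 to 2 on leaving out any 1 cell. In transplanted over E15 the 1 higher was 0 on mean CPM, within pools, without pool A or for subunits alone, 2 without pool F, 3 without pool H, 4 on thinning and 0 to 3 on leaving out any 1 cell. The 0 lower were 3 on mean CPM, 1 by group medians, 2 on thinning and 4 within pools. In transplanted over E12 the 7 higher were 15 by group medians, 4 by deposited values, 11 with TMM, 11, 4 and 12 without pools A, D and G, 14 within pools and 4 to 10 on leaving out any 1 cell (32.2% of all genes passed by group medians and 44.5% within pools). The 2 lower were 0 by group medians, 1 by deposited values, 4 on thinning and 1 to 2 on leaving out any 1 cell.

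Of single members, Ndufv3 in transplanted over E12 stood at 0.84 within pools. Ndufs1 in E15 over E12 stood at 0.28 within pools. Cox6b2 stood at 0.066 by deposited values, 1.71 within pools and -3.21 to 2.48 on leaving out 1 cell in E15 over E12. In transplanted over E12 it stood at 0.15 on mean CPM, 0.16 by deposited values, 1.38 on thinning, 1.02 within pools and -2.49 to 3.31 on leaving out 1 cell. Atp5s in transplanted over E15 stood at -0.21 by group medians. No paired analysis was possible because the replicate numbers only name cells and no result comes from a test. Ratios within pools are values without a test.

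Depth limits the low members: a count of 0 over the group allows up to 0.236 CPM in transplanted, 0.0800 CPM in E15 and 0.607 CPM in E12 cells. Members seen per cell depend on depth.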
